A study of Mus musculus with 3 samples.

Results

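The Cyp4a genes of the mouse encode cytochrome P450 enzymes of the endoplasmic reticulum that add a hydroxyl group to the terminal, or omega, carbon of fatty acids. The 6 copies described here, Cyp4a10, Cyp4a14, Cyp4a31, Cyp4a32, Cyp4a12a and Cyp4a12b, were taken by gene name from 41799 genes in each of 3 liver RNA-seq libraries. One library came from mice on a high-fat diet (HFD) given the sulfated oligosaccharide DfCS-Ib at 40 mg/kg by oral gavage in 0.3 ml of water, one from HFD mice, and one from mice on regular chow. All mice were male C57BL/6 mice aged 14 weeks, in groups of 8. The number of mice behind each library is not given in the sources used here, nor is the makeup of the HFD or how long feeding and dosing lasted. With 1 library per group there was no replicate check, so every difference below is between libraries and carries no test.

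Omega-hydroxylation begins a minor route of fatty acid breakdown in liver: alcohol and aldehyde dehydrogenases oxidise the hydroxylated chain to a dicarboxylic acid, which is shortened in peroxisomes. Like other microsomal P450s, the enzymes take electrons from NADPH through P450 reductase, encoded by Por, and in part through cytochrome b5. Cyp4a10 and Cyp4a14 are classical targets of PPAR alpha, the fatty-acid-sensing nuclear receptor, in rodent liver. Cyp4a12a and Cyp4a12b are known instead for high expression in male liver and kidney, and the Cyp4a12a enzyme also hydroxylates arachidonic acid.

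The copies were nearly identical in places, which limits how well reads can be assigned to any one of them. In the coding sequences of GENCODE M21 on GRCm38, Cyp4a10 was 96.6% identical to Cyp4a31 and 97.2% identical to Cyp4a32, and Cyp4a31 and Cyp4a32 were 96.0% identical to each other. Cyp4a12a and Cyp4a12b were 98.5% identical, differing at 23 of 1524 coding bases. Cyp4a14 stood alone, with 75.1% to 75.9% identity to the other copies. The stretch of 60 bases that codes for the loop around the heme-binding cysteine shows the 3 sequence groups. It is read across an intron at chr4:115529487-115532558 (plus strand) in Cyp4a10, chr4:115487284-115489820 (minus strand) in Cyp4a14 and chr4:115328971-115331861 (plus strand) in Cyp4a12a. Capitals mark bases that differ from Cyp4a10.
Cyp4a10: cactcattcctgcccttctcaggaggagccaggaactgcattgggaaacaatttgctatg
Cyp4a14: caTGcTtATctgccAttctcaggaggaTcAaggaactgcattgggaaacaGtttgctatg
Cyp4a12a: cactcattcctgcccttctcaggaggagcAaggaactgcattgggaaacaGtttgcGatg
Cyp4a31 and Cyp4a32 carried the same 60 bases as Cyp4a10, and Cyp4a12b the same as Cyp4a12a, so a read that lies within this stretch cannot be placed on one copy of either group.

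The coding stretches of 60 bases in which close copies were least alike are shown, because coding reads identify a copy only where they cross such differences. Sequence outside the coding part was not searched for such stretches, though reads there can also identify a copy. For the Cyp4a12 pair this stretch runs across an intron at chr4:115326310-115326682 in Cyp4a12a and chr4:115432562-115432935 in Cyp4a12b, both on the plus strand, and held 4 differences, in capitals.
Cyp4a12a: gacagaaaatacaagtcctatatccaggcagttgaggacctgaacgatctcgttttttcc
Cyp4a12b: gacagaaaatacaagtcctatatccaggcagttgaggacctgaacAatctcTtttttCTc
For the other group it lies at chr4:115519642-115519701 in Cyp4a10, chr4:115565022-115565081 in Cyp4a31 and chr4:115602272-115602331 in Cyp4a32, on the plus strand. A base was counted as different where any copy of the group differed, so Cyp4a10 and Cyp4a31 may be less alike elsewhere. Capitals mark 2 differences from Cyp4a10 in Cyp4a31 and 9 in Cyp4a32.
Cyp4a10: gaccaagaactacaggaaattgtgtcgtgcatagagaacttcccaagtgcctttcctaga
Cyp4a31: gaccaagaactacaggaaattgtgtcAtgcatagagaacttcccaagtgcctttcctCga
Cyp4a32: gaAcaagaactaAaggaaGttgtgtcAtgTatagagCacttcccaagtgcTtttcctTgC
Windows of 50 bases along each transcript were then searched for in the transcripts of all other genes. Of these windows, 48.9% of Cyp4a12a and 49.4% of Cyp4a12b occurred in another gene, as did 46.8% of Cyp4a32, 30.5% of Cyp4a10 and 21.8% of Cyp4a31. The Cyp4a32 transcript used held 1530 bases, 1527 of them coding, beside a deposited gene length of 2065. The other transcripts held 2109 to 2509 bases, so the share of Cyp4a32 covers almost only coding sequence and is not directly comparable. For Cyp4a14 the share was 0.245%, and none of its windows occurred in another of the 6 copies. Cyp4a14 counts were thus the least open to reads of other copies. No window was shared between the Cyp4a12 pair and Cyp4a10, Cyp4a31 or Cyp4a32. How the authors counted reads that map to several genes is not given in the sources used here, so a count for any copy but Cyp4a14 may hold reads of its near copies.

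**Figure D1:**
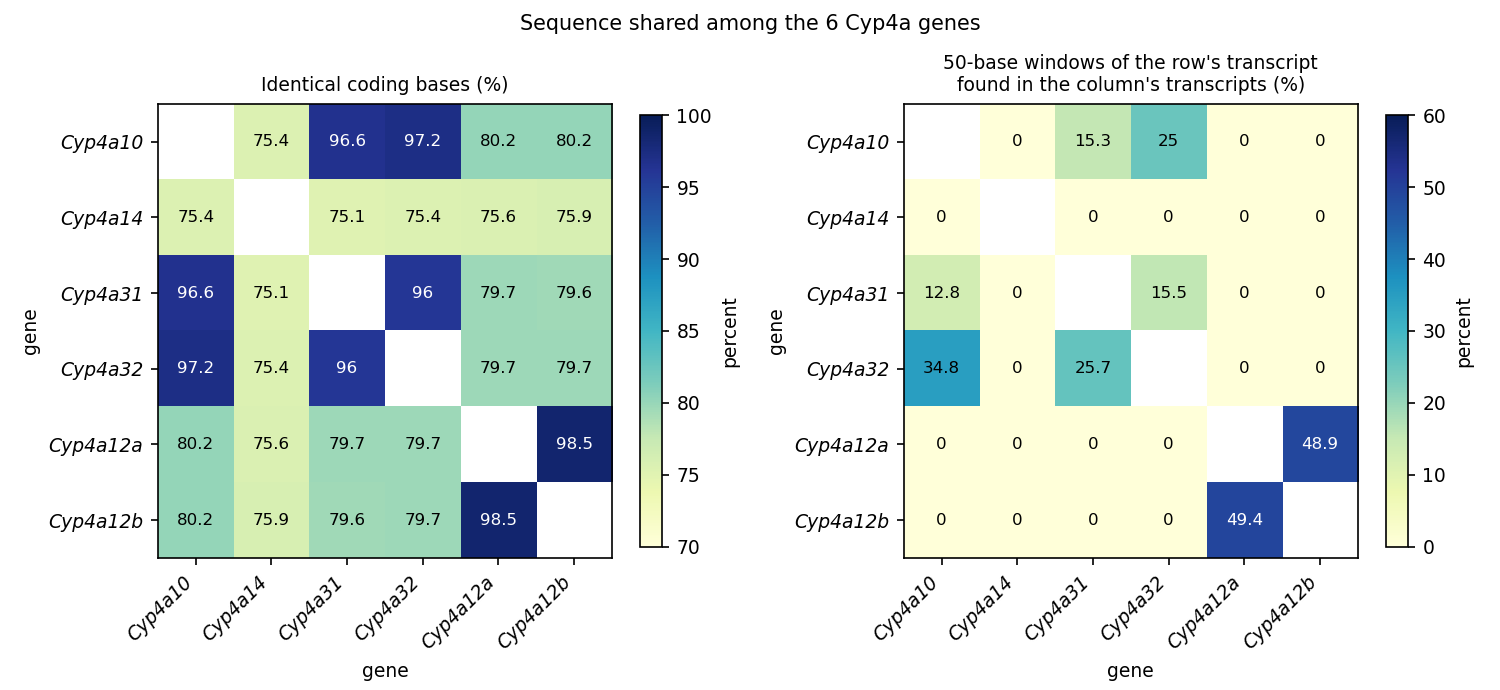
Heat maps of coding identity in percent between each pair of the 6 genes (left) and of the percent of each gene's 50-base transcript windows that also occur in each other gene (right). Cyp4a10, Cyp4a31 and Cyp4a32 form one block, Cyp4a12a and Cyp4a12b another, and Cyp4a14 shares no window with the other 5.

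The libraries held 10969699 counts in HFD + DfCS-Ib liver, 12279537 in HFD liver and 11028671 in chow liver. Counts were given as CPM, on a common library total, with TMM factors of 0.978 for HFD + DfCS-Ib, 1.048 for HFD and 0.976 for chow liver, and a gene was called measured where its mean over the libraries was at least 1 CPM, which left 13153 genes, all 6 Cyp4a copies among them. A gene is described as called where its log2 ratio, on CPM + 1, passed a 2-fold difference. Calls on the authors' RPKM used RPKM + 1, where the added 1 weighs more on genes of low RPKM. The intervals given with folds are exact 95% intervals for counting error only and say nothing of the spread between mice. Of the called genes, 54.9% were higher in HFD + DfCS-Ib than in HFD liver, a share of 43.4% with library totals and no factors and 44.7% on the authors' RPKM. For HFD over chow that share was 60.5%, against 70.3% with library totals and 68.3% on RPKM. For HFD + DfCS-Ib over chow it was 78.9%, against 70.04% on RPKM and 69.0% when the 50 most abundant genes did not enter the totals. The hepatocyte markers were abundant in every library, at 133072 CPM in sum in HFD + DfCS-Ib liver, 121477 in HFD liver and 146192 in chow liver, with none of 8 at 0.

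Summed over the 6 copies, Cyp4a RNA was lowest in HFD liver. It took 0.669% of all counts in HFD + DfCS-Ib liver (95% binomial interval, Clopper-Pearson, 0.664% to 0.674%), 0.136% in HFD liver (0.134% to 0.138%) and 0.833% in chow liver (0.828% to 0.839%). The sum of counts was 5.28-fold higher in HFD + DfCS-Ib than in HFD liver (5.19 to 5.37) and 6.59-fold lower in HFD than in chow liver (6.48 to 6.70). The sum in HFD + DfCS-Ib liver was 0.801 of that in chow liver (0.793 to 0.808). In bulk liver, fewer cells that express a gene and less of its RNA per cell cannot be told apart. Most periportal hepatocyte markers were also lowest in HFD liver. The 10 markers summed to 11713 CPM in HFD + DfCS-Ib liver, 6756 CPM in HFD liver and 14172 CPM in chow liver, none at 0, with Pck1 and Arg1 the largest parts. Cyp2f2 was the exception, at 1094 CPM in HFD + DfCS-Ib, 1178 in HFD and 963 in chow liver. Of the 10 markers 3 were called higher in HFD + DfCS-Ib than in HFD liver, and 7 were called lower in HFD than in chow liver. The 10 pericentral markers summed to 12513 CPM in HFD + DfCS-Ib, 9649 in HFD and 9662 in chow liver, mostly Cyp2e1. Of these 2 were called higher and 1 lower in HFD + DfCS-Ib than in HFD liver, and 2 higher and 1 lower in HFD than in chow liver. Oat and Cyp1a2 differ in order, with Oat at 1821 CPM in HFD + DfCS-Ib, 827 in HFD and 2057 in chow liver, and Cyp1a2 at 479.7 in HFD + DfCS-Ib, 858 in HFD and 258 in chow liver. The 8 Kupffer cell and macrophage markers, none at 0, summed to 614 CPM in HFD + DfCS-Ib, 345 in HFD and 281 in chow liver. The part of lobular zones or of macrophages in the Cyp4a levels was not tested. Kidney tubule is the other main site of Cyp4a expression. Its markers summed to 1.03 CPM in HFD + DfCS-Ib, 1.71 CPM in HFD and 0.929 CPM in chow liver, with Slc34a1, Kap and Slc12a1 at 0 in all of them. A 0 in every library need not mean absent RNA. Acadvl, Angptl4, Rxrb and Gstp1, of the liver gene lists below, were also at 0 in every library, and the reason was not tested.

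**Figure D2:**
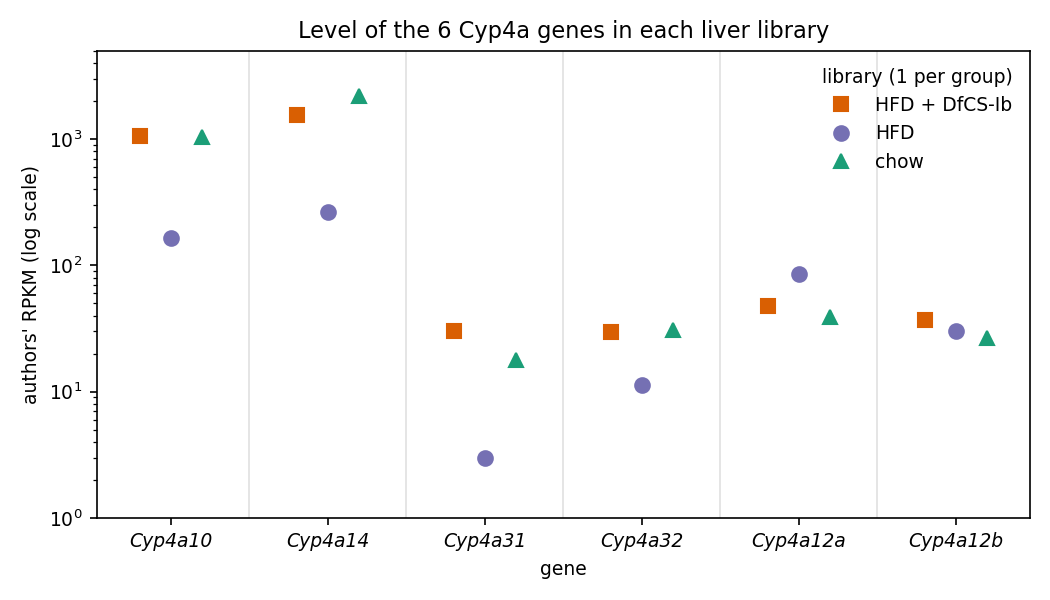
Level of each of the 6 genes per length of transcript, in the authors' RPKM on a log axis, in HFD + DfCS-Ib, HFD and chow liver, with 1 point per library. Cyp4a10 and Cyp4a14 sit far above the other 4 in HFD + DfCS-Ib and chow liver, and Cyp4a12a is the copy whose highest point is HFD liver.

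Per transcript length, in the authors' RPKM (reads per kilobase of transcript, scaled by the library's total), the family ran over about the same order in each library, with Cyp4a14 first and Cyp4a10 next. Cyp4a14 had 1544 RPKM in HFD + DfCS-Ib liver, 262 RPKM in HFD liver and 2187 RPKM in chow liver. Cyp4a10 had 1050.0 RPKM in HFD + DfCS-Ib liver, 164 RPKM in HFD liver and 1044 RPKM in chow liver. These levels placed Cyp4a14 in rank 47 of all genes in HFD + DfCS-Ib liver, 225 in HFD liver and 28 in chow liver. In HFD + DfCS-Ib liver the lower places were held by Cyp4a12a, Cyp4a12b, Cyp4a31 and Cyp4a32, at 47.5, 36.5, 30.1 and 29.6 RPKM, and the last 2 did not differ beyond counting error, with a ratio of 1.02 per length (0.918 to 1.13). In HFD liver Cyp4a12a had 84.8 RPKM, Cyp4a12b 30.2, Cyp4a32 11.4 and Cyp4a31 2.96. In chow liver Cyp4a12a had 39.3 RPKM, Cyp4a32 30.9, Cyp4a12b 26.4 and Cyp4a31 17.8. The other neighbouring copies in each order differed beyond counting error, and only the places of Cyp4a12b, Cyp4a31 and Cyp4a32 changed between libraries. As a share of summed family RPKM, Cyp4a14 held 56.4% in HFD + DfCS-Ib, 47.2% in HFD and 65.4% in chow liver. Cyp4a12a, a minor copy otherwise, held 1.73% in HFD + DfCS-Ib, 15.3% in HFD and 1.17% in chow liver.

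Cyp4a14, Cyp4a10, Cyp4a31 and Cyp4a32 were all lowest in HFD liver. These 4 of the 6 copies were called higher in HFD + DfCS-Ib than in HFD liver, where 2.46% of measured genes were, and none was called lower, where 2.02% were, or 4.49% in both directions. The same 4 were called lower in HFD than in chow liver, where 2.27% of measured genes were. Both comparisons use the same HFD library, so the second is not an independent view of the first. Cyp4a10, Cyp4a31 and Cyp4a32 may also share reads, so their calls are not independent of one another. The median log2 ratio of the 6 copies was 2.05 for HFD + DfCS-Ib over HFD, beside -0.01 over all measured genes, and -2.02 for HFD over chow, beside 0.02.

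Cyp4a14, whose transcript has no 50-base window in common with the other copies, had 45609 counts in HFD + DfCS-Ib liver, 8671 in HFD liver and 64942 in chow liver. Its level in HFD liver was the low one, and its level in HFD + DfCS-Ib liver lay below that in chow liver. The scaled counts were 6.31-fold higher in HFD + DfCS-Ib than in HFD liver (6.17 to 6.46), and 8.96-fold lower in HFD than in chow liver (8.76 to 9.16). HFD + DfCS-Ib liver had 0.704 of the chow level (0.696 to 0.713). Among measured genes Cyp4a14 ranked 19 from the top in HFD + DfCS-Ib over HFD and 10 from the bottom in HFD over chow, by log2 ratio.

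Cyp4a10 had 24027 counts in HFD + DfCS-Ib liver, 4212 in HFD liver and 24023 in chow liver. HFD liver stood apart, while the other libraries were alike: the ratio of scaled counts in HFD + DfCS-Ib to chow liver was 1.003, with a counting interval of 0.985 to 1.02. The level in HFD + DfCS-Ib liver was 6.84-fold higher than in HFD liver (6.62 to 7.07), and that in HFD liver was 6.82-fold lower than in chow liver (6.60 to 7.05). Per length, Cyp4a14 exceeded Cyp4a10 by 1.47-fold in HFD + DfCS-Ib, 1.595-fold in HFD and 2.09-fold in chow liver, so the distance between the 2 main copies was widest in chow liver.

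Cyp4a31 had 837 counts in HFD + DfCS-Ib liver, 92 in HFD liver and 498 in chow liver. It was the copy with the largest ratio of HFD + DfCS-Ib to HFD liver, 10.9-fold (8.79 to 13.7), and ranked 10 from the top of the measured genes. Its level was 6.47-fold lower in HFD than in chow liver (5.17 to 8.18), and 1.69-fold higher in HFD + DfCS-Ib than in chow liver (1.51 to 1.89). Cyp4a32 had 671 counts in HFD + DfCS-Ib liver, 288 in HFD liver and 704 in chow liver, the smallest separation among the 4 copies. Its scaled counts were 2.79-fold higher in HFD + DfCS-Ib than in HFD liver (2.43 to 3.22), and 2.92-fold lower in HFD than in chow liver (2.54 to 3.36). HFD + DfCS-Ib and chow liver did not differ beyond counting error in Cyp4a32, at a ratio of 0.956 (0.859 to 1.06).

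**Figure D3:**
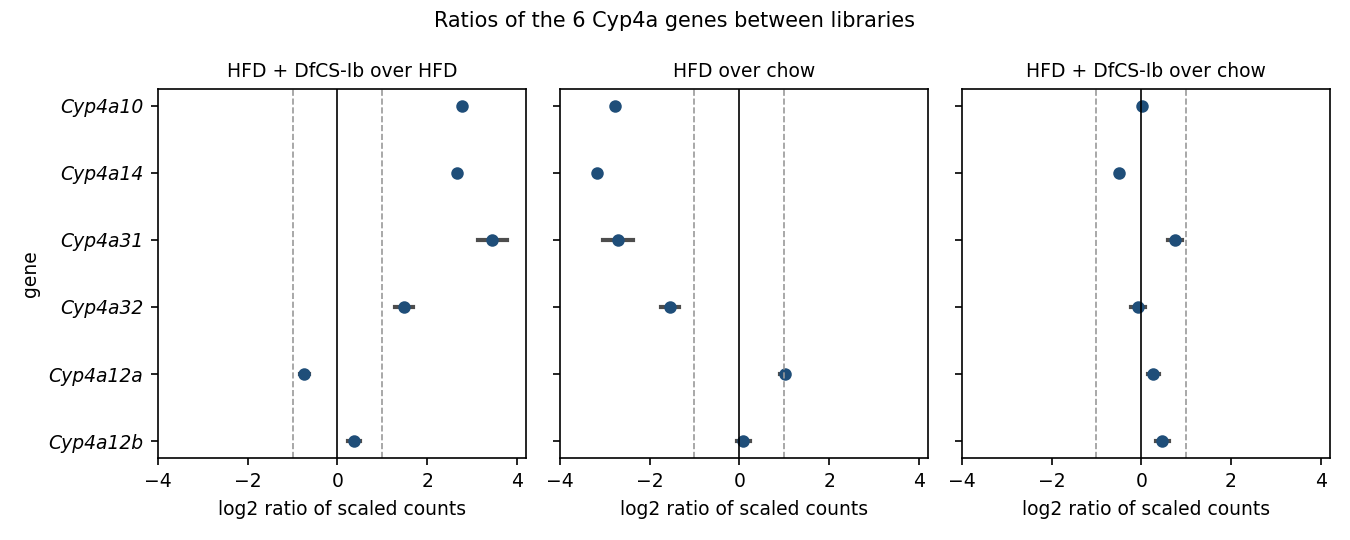
Ratios of scaled counts between libraries for each of the 6 genes, on a log2 axis, with exact 95% intervals for counting error. Cyp4a10, Cyp4a14, Cyp4a31 and Cyp4a32 lie above 0 in HFD + DfCS-Ib over HFD and below it in HFD over chow, Cyp4a12a lies on the opposite side in both, and all lie within 1 unit of 0 in HFD + DfCS-Ib over chow.

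Because Cyp4a31 and Cyp4a32 share windows with the far more abundant Cyp4a10, their counts were set against it. Cyp4a31 counts were 3.48% of Cyp4a10 counts in HFD + DfCS-Ib liver (3.25% to 3.73%), 2.18% in HFD liver (1.76% to 2.69%) and 2.07% in chow liver (1.89% to 2.27%). Cyp4a32 counts were 2.79% of Cyp4a10 counts in HFD + DfCS-Ib liver (2.58% to 3.02%), 6.84% in HFD liver (6.05% to 7.71%) and 2.93% in chow liver (2.72% to 3.16%). Neither minor copy was thus a fixed share of Cyp4a10 in the 3 libraries: Cyp4a31 stood above its other values in HFD + DfCS-Ib liver and Cyp4a32 in HFD liver. How many of the counts listed for Cyp4a31 and Cyp4a32 came from Cyp4a10 RNA was not tested. The 3 copies in sum, which depends less on how reads were divided among them, were 6.67-fold higher in HFD + DfCS-Ib than in HFD liver (6.46 to 6.88), and 6.57-fold lower in HFD than in chow liver (6.37 to 6.78).

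Cyp4a12a took the other direction. It had 1261 counts in HFD + DfCS-Ib liver, 2523 in HFD liver and 1049 in chow liver, so HFD liver was the high one. Its scaled counts were 1.67-fold lower in HFD + DfCS-Ib than in HFD liver (1.56 to 1.79) and 2.01-fold higher in HFD than in chow liver (1.87 to 2.16). It was the 1 copy of 6 called higher in HFD than in chow liver, where 3.47% of measured genes were (5.74% in both directions). That call was marginal, just past the 2-fold threshold, and was lost with DESeq2 size factors and with a pseudocount of 5 CPM. Cyp4a12b had 960 counts in HFD + DfCS-Ib liver, 887 in HFD liver and 697 in chow liver. It was 1.30-fold higher in HFD + DfCS-Ib than in HFD liver (1.18 to 1.42), and HFD and chow liver did not differ beyond counting error, at a ratio of 1.06 (0.963 to 1.18).

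The 2 Cyp4a12 copies therefore stood in different proportions. Per length, Cyp4a12a was 1.30 times Cyp4a12b in HFD + DfCS-Ib liver (1.19 to 1.41), 2.81 times in HFD liver (2.60 to 3.04) and 1.49 times in chow liver (1.35 to 1.64). Because the pair shares so many of its 50-base windows, it is open to uneven division of reads. In sum the pair was at 0.781 in HFD + DfCS-Ib relative to HFD liver (0.740 to 0.824). The sum was 1.63-fold higher in HFD than in chow liver (1.54 to 1.73) and 1.28-fold higher in HFD + DfCS-Ib than in chow liver (1.20 to 1.36). For Cyp4a12b the sum lay on the opposite side of the copy's own ratio in HFD + DfCS-Ib over HFD.

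Between HFD + DfCS-Ib and chow liver none of the 6 copies was called, where 1.62% of measured genes were called higher and 0.433% lower. The median log2 ratio of the copies was 0.14, beside 0.00 over all measured genes, and single copies ran between -0.51 for Cyp4a14 and 0.74 for Cyp4a31.

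On chromosome 4 of mm10 the members span 323 kb, in the order Cyp4a12a (chr4:115299046-115332815), Cyp4a12b (chr4:115411624-115439034), Cyp4a14 (chr4:115486200-115496159), Cyp4a10 (chr4:115518287-115533649), Cyp4a31 (chr4:115563626-115579015) and Cyp4a32 (chr4:115600928-115622507), all on the plus strand but Cyp4a14. No member overlaps another gene model of the files. Within 200 kb lie 12 further gene models, of which 4 had 10 or more counts in a library, and none of the 4 was called in either comparison with HFD liver. Cyp4b1, a related P450 that lies next to Cyp4a32, had log2 ratios of -0.16 for HFD + DfCS-Ib over HFD and 0.11 for HFD over chow. Atpaf1, an assembly factor of mitochondrial ATP synthase, had log2 ratios of -0.65 for HFD + DfCS-Ib over HFD and 0.51 for HFD over chow. Efcab14 had 0.09 for HFD + DfCS-Ib over HFD and -0.13 for HFD over chow, and Mob3c had -0.10 for both. Differences past 2-fold in the window were thus found for Cyp4a copies and for none of these 4 neighbours. Cyp4a29, Cyp4a30b and Cyp4x1 held at most 1 count in any library.

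**Figure D4:**
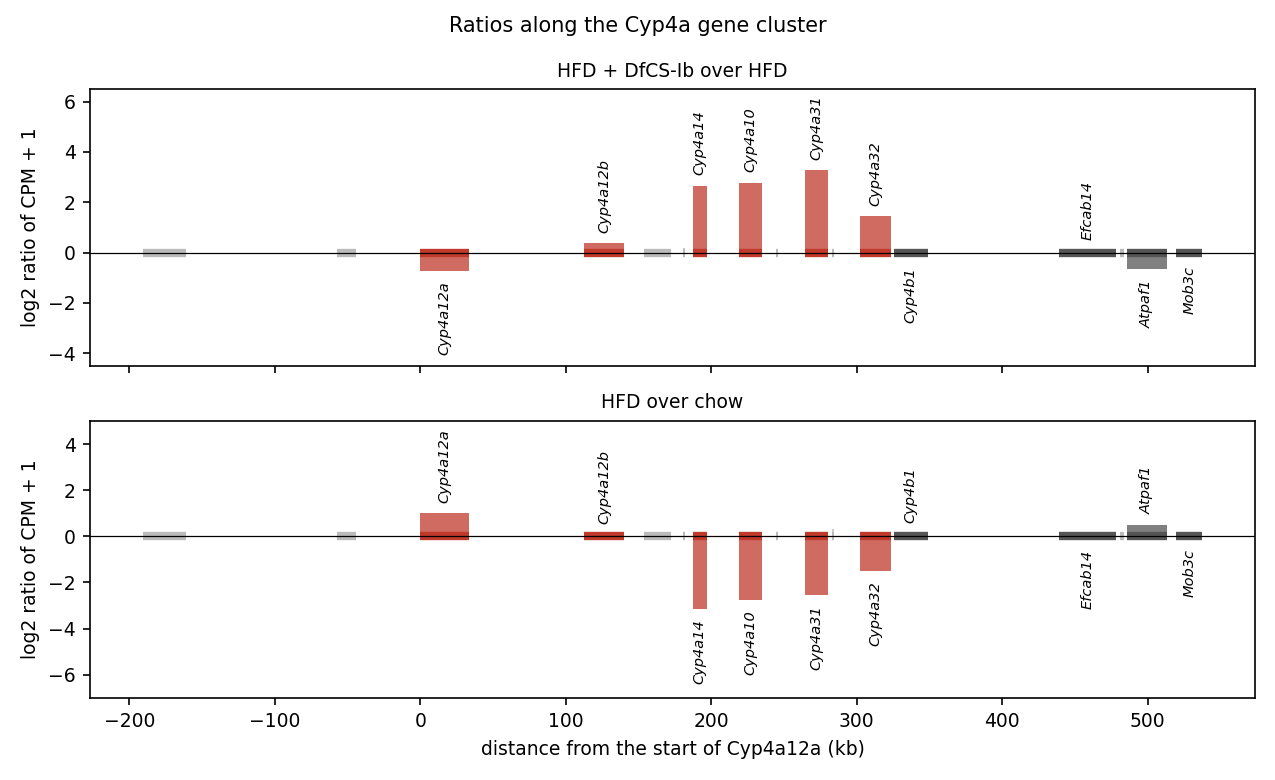
Log2 ratios of CPM + 1 along the gene cluster, by distance in kb from the start of Cyp4a12a, for HFD + DfCS-Ib over HFD (top) and HFD over chow (bottom), with Cyp4a copies in red, other genes with 10 or more counts in dark grey and the remaining gene models in pale grey. The 4 copies at the right of the family point up at the top and down at the bottom, and Cyp4a12a at its left end points the other way.

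Among the other Cyp4 genes, 7 were measured, and none was called in HFD + DfCS-Ib over HFD, with a median log2 ratio of -0.02. The 1 called higher in HFD than in chow liver was Cyp4f14, an omega-hydroxylase of leukotrienes and other lipids, with 154 CPM in HFD + DfCS-Ib liver, 284 in HFD liver and 120 in chow liver. This order of libraries is that of Cyp4a12a, with a 1.84-fold lower level in HFD + DfCS-Ib than in HFD liver and a 2.37-fold higher one in HFD than in chow liver (2.23 to 2.53).

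Enzymes that take omega-hydroxylated chains onward were not lowest in HFD liver. Of 6 measured alcohol and aldehyde dehydrogenases of this step, none was called higher and 2 were called lower in HFD + DfCS-Ib than in HFD liver, with a median log2 ratio of -0.49. Those 2 were Adh1, at 959.7 CPM in HFD + DfCS-Ib, 2275 in HFD and 829 in chow liver, and Adh4, at 101 CPM in HFD + DfCS-Ib, 212 in HFD and 66.5 in chow liver. Both were called higher in HFD than in chow liver, by 2.75-fold and 3.18-fold, and the median there was 0.67. Aldh3a2, the fatty aldehyde dehydrogenase, had 522 CPM in HFD + DfCS-Ib liver, 616 in HFD liver and 361 in chow liver.

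The genes of the electron donor list took no single order. Por, the P450 reductase, had 904 CPM in HFD + DfCS-Ib liver, 177 in HFD liver and 754 in chow liver, so that HFD liver was the low one as for Cyp4a10. It was 5.10-fold higher in HFD + DfCS-Ib than in HFD liver (4.87 to 5.34) and 4.25-fold lower in HFD than in chow liver (4.05 to 4.45). Its gene overlaps 2 models on the opposite strand, and whether the counts used strand is not given in the sources used here. Cyb5b, a cytochrome b5 of the mitochondrial outer membrane, had 222 CPM in HFD + DfCS-Ib liver, 708 in HFD liver and 192 in chow liver, with HFD liver the high one, and Cyb5r3, the cytochrome b5 reductase, had 202 CPM in HFD + DfCS-Ib, 421 in HFD and 177 in chow liver. Cyb5a, another cytochrome b5 named after its values were seen, had 1016 CPM in HFD + DfCS-Ib, 1008 in HFD and 674 in chow liver. It was thus close to level between the HFD libraries and lowest in chow liver. Over the 6 genes of this list 1 was called higher and 2 lower in HFD + DfCS-Ib than in HFD liver, and 2 higher and 1 lower in HFD than in chow liver.

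Most of the 20 genes of dicarboxylic acid and peroxisomal oxidation were not called. In HFD + DfCS-Ib over HFD 1 was called higher and 2 lower, with a median log2 ratio of 0.16, and in HFD over chow 2 were called higher and 4 lower, with a median of -0.15. On RPKM + 1 the calls in HFD over chow were 1 higher and 2 lower. Ehhadh, the peroxisomal bifunctional enzyme that acts on dicarboxylic acids, had 1123 CPM in HFD + DfCS-Ib liver, 505 in HFD liver and 1529.6 in chow liver, lowest in HFD liver as the 4 Cyp4a copies were. The 2 called lower in HFD + DfCS-Ib liver were Abcd2, a peroxisomal fatty acid transporter, at 7.46 CPM in HFD + DfCS-Ib, 37.1 in HFD and 16.7 in chow liver, and Nudt7, a peroxisomal coenzyme A hydrolase, at 199 CPM in HFD + DfCS-Ib, 413 in HFD and 120.06 in chow liver.

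PPAR alpha and its partners lay on the same side as Cyp4a10 and Cyp4a14, mostly by small ratios. All 11 measured genes of this list were above 0 in HFD + DfCS-Ib over HFD, with 3 called and a median log2 ratio of 0.33. None was called on the authors' RPKM + 1. Without the added 1, the same 3 were past 2-fold on RPKM, Ppara only just. Ppara had 57.1 RPKM in HFD + DfCS-Ib and 28.5 in HFD liver, Ppargc1a 3.88 and 1.51, and Ppargc1b 2.52 and 1.11. All 11 were below 0 in HFD over chow, with 1 called and a median of -0.27, but 10 of 11 with library totals or on RPKM. Ppara had 617 CPM in HFD + DfCS-Ib liver, 288 in HFD liver and 421 in chow liver, 2.15-fold higher in HFD + DfCS-Ib than in HFD liver (2.06 to 2.24) and 1.46-fold lower in HFD than in chow liver (1.40 to 1.53). Ppargc1a, a coactivator of the receptor, had 30.6 CPM in HFD + DfCS-Ib liver, 11.1 in HFD liver and 33.6 in chow liver. Ppargc1b, its relative, had 29.5 CPM in HFD + DfCS-Ib liver but 12.2 in HFD and 12.4 in chow liver, so only HFD + DfCS-Ib liver stood out.

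Of 20 other measured PPAR alpha targets, 6 were called higher and none lower in HFD + DfCS-Ib than in HFD liver, with a median log2 ratio of 0.64. In HFD over chow 7 were called lower and 1 higher, with a median of -0.52, and 4 of the 20 were above 0. The 1 called higher was Fabp1, named after its values were seen. It had 1677 CPM in HFD + DfCS-Ib, 2134 in HFD and 704 in chow liver, so HFD liver was the high one. Vnn1, also named after its values were seen, lay just short of a call as higher, at a log2 ratio of 0.989. The calls in HFD over chow were 2 higher and 6 lower with library totals or on RPKM + 1. Without the 50 most abundant genes in the totals they were 2 higher and 8 lower. Acot1, a fatty acyl-CoA thioesterase with near copies in the genome, had 79.3 CPM in HFD + DfCS-Ib liver, 20.8 in HFD liver and 93.7 in chow liver, and Slc22a5, the carnitine transporter, had 95.6 CPM in HFD + DfCS-Ib, 22.7 in HFD and 61.9 in chow liver. Both were lowest in HFD liver. They and Fgf21 were named because their log2 ratios of HFD + DfCS-Ib over HFD were the largest in size of this list, so they do not stand for the list. Fgf21, a fasting-induced hormone of the liver, rested on few reads, with 101 counts in HFD + DfCS-Ib, 10 in HFD and 25 in chow liver, and its model overlaps Fut1 on the opposite strand.

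**Figure D5:**
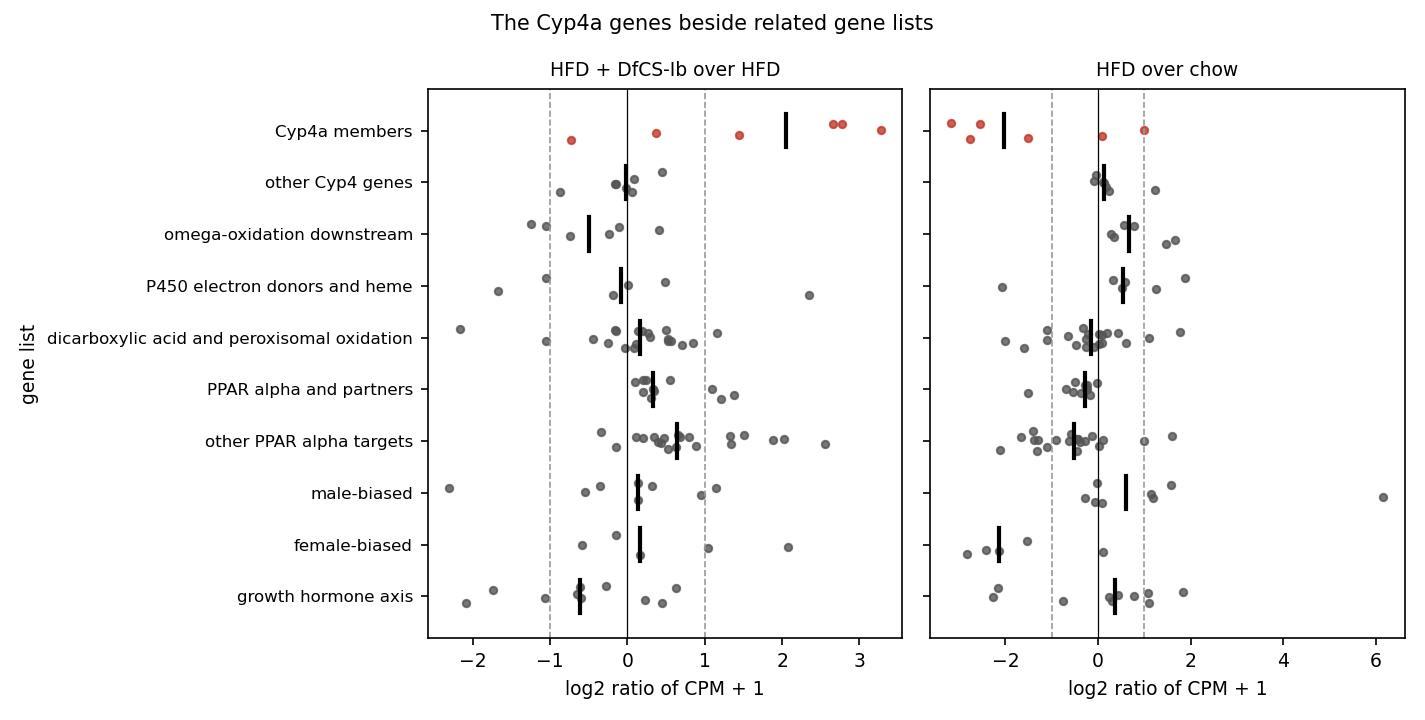
Log2 ratios of CPM + 1 of the measured genes in each gene list, for HFD + DfCS-Ib over HFD (left) and HFD over chow (right), with 1 point per gene and a bar at each list's median. Cyp4a10, Cyp4a14, Cyp4a31 and Cyp4a32 lie at 1.44 to 3.28 on the left and -1.51 to -3.16 on the right, while 5 of the 6 dehydrogenases of omega-oxidation lie below 0 on the left and all 6 above 0 on the right.

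Because Cyp4a12a and Cyp4a12b are known as male-predominant in mouse liver, other sex-biased genes were listed beside them. Of 8 measured male-biased genes, 4 were called higher in HFD than in chow liver and none lower, while 1 was called higher and 1 lower in HFD + DfCS-Ib than in HFD liver. Hsd3b5, a male-specific steroid reductase with near copies, had 56.0 CPM in HFD + DfCS-Ib liver, 281 in HFD liver and 2.97 in chow liver, in the order of Cyp4a12a but over a far wider range. Cyp2d9, a male-biased steroid hydroxylase with near copies, was close to level at 1198 CPM in HFD + DfCS-Ib, 1091 in HFD and 1101 in chow liver, and Cyp7b1, an oxysterol hydroxylase, had 567 CPM in HFD + DfCS-Ib, 255 in HFD and 267 in chow liver. Elovl3 and Selenbp2, named after their values were seen, also took the order of Cyp4a12a. Elovl3 had 606 CPM in HFD + DfCS-Ib, 773 in HFD and 348 in chow liver. Selenbp2 had 222 CPM in HFD + DfCS-Ib, 328 in HFD and 110 in chow liver. Apart from these and Hsd3b5, the 8 measured male-biased genes were highest in HFD + DfCS-Ib liver. The list thus took no common order across the libraries. In HFD + DfCS-Ib over chow, however, all 8 measured were above 0, with a median log2 ratio of 0.90. There 4 were called higher, or 3 without the 50 most abundant genes in the totals, and none lower. Of all measured genes 1.62% were called higher in that comparison. Of 5 measured female-biased genes 4 were called lower in HFD than in chow liver and 2 were called higher in HFD + DfCS-Ib than in HFD liver, where library totals or RPKM left 1. One of them was Cyp17a1, a steroid hydroxylase, at 41.0 CPM in HFD + DfCS-Ib, 8.94 in HFD and 69.98 in chow liver. In HFD + DfCS-Ib over chow all 5 female-biased genes were below 0. Of these 3 were called lower, or 2 on RPKM, while 0.433% of all measured genes were called lower.

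Of 10 genes of the growth hormone axis, none was called higher and 3 lower in HFD + DfCS-Ib than in HFD liver, with a median log2 ratio of -0.61. In HFD over chow 3 were called higher and 2 lower, with a median of 0.38. Ghr, the growth hormone receptor, had 418 CPM in HFD + DfCS-Ib liver, 634 in HFD liver and 301 in chow liver. Stat5b, its main signal transducer in male liver, had 43.9 CPM in HFD + DfCS-Ib, 68.0 in HFD and 49.8 in chow liver, so both were highest in HFD liver, as Cyp4a12a was. Others of the axis took another order: the 2 called lower in HFD than in chow liver were Socs2 and Bcl6, named after their values were seen. Socs2, an inhibitor of the receptor's signal, had 10.3 CPM in HFD + DfCS-Ib, 6.37 in HFD and 34.3 in chow liver, and Bcl6, a transcriptional repressor, had 9.97 in HFD + DfCS-Ib, 7.07 in HFD and 35.03 in chow liver. Both were lowest in HFD liver, unlike Cyp4a12a. Onecut1, a liver transcription factor regulated by growth hormone, had 6.80 CPM in HFD + DfCS-Ib liver, 32.3 in HFD liver and 8.36 in chow liver. Onecut1, Ghr, Cyp17a1 and Ppargc1b each overlap a gene model on the opposite strand, and Onecut1 and Ppargc1b also overlap 1 on their own strand.

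The genes with ratios most like those of 4 members were sought among the 7707 genes that averaged 10 CPM or more, by Euclidean distance in log2 units over HFD + DfCS-Ib over HFD and HFD over chow, that is over 3 libraries. Nearest to Cyp4a10 were Eif4ebp3, a translation repressor, at a distance of 0.420, St3gal5, a ganglioside synthase, at 0.506 and Nnmt, nicotinamide N-methyltransferase, at 0.526. Nearest to Cyp4a14 were the long noncoding RNAs Gm36691 and Ctcflos, at 0.233 and 0.280, and Nipal1, a magnesium transporter, at 0.490. Egr1, an immediate early transcription factor, lay nearest to Cyp4a31, at 0.482. St3gal5 and Eif4ebp3 followed it at 0.669 and 0.904. Nearest to Cyp4a12a were Srebf2, the regulator of sterol synthesis, at 0.0069, Slc36a1, an amino acid transporter, at 0.026 and Car8, a carbonic anhydrase-related protein, at 0.0307. Ratios the size of those of Cyp4a12a are held by more genes than ratios the size of those of the other 3.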

How the data were processed

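Liver RNA was sequenced as 1 library per group. The authors deposited, per gene, a read count and an RPKM value (reads per kilobase of transcript, scaled by library total). Per the submitters' processing notes, the aligner was TopHat2 and the build mm10. The counting tool is not given in the sources used here, nor are its treatment of strand and of multi-mapping reads, or the read length. The deposited RPKM equalled count over length and library total within 0.000506% for genes with at least 100 counts. Counts were scaled with TMM factors (edgeR 4.0.16, R 4.3.3), and log2 ratios used CPM + 1, or RPKM + 1 where RPKM was the alternative. Folds are ratios of scaled counts with exact 95% binomial intervals (scipy 1.17.1), which cover counting error only; reads are not independent molecules. No p-value was computed. By counting error alone, a count of 0 allows up to 3 counts, or 0.233 to 0.280 CPM. Sequences came from GENCODE M21 on GRCm38, the same assembly as mm10.

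The 6 members and all gene lists were chosen with earlier results of these data known. Of 199 listed genes 198 were matched. Some matched genes were not measured and left their list's counts, among them Acadvl, Angptl4, Rxrb and Gstp1, at 0 counts in every library. Besides the members, genes were named by rule: Cyp4 genes and neighbours within 200 kb with at least 10 counts, a set of key enzymes and regulators, the 3 measured genes of each function list with the largest absolute log2 ratio, up or down, of HFD + DfCS-Ib over HFD, and the 3 genes most like a member. Of these, some genes are described only through their list's count. One gene under this rule is not reported here. Alternatives were DESeq2 1.42.0 size factors, library totals, RPKM, totals without the 50 most abundant genes, pseudocounts of 0.5 and 5, no filter on low counts, a 3-fold call and summed copies. The scalings were also applied to the gene lists, an alternative chosen after seeing the data.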

Additional observations from a re-analysis of the deposited data

How the results depend on the processing

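No called member ratio reversed. Of 87 recomputed values of the 18 member ratios, 65 stayed within their counting interval and 22 moved beyond it, by at most 1.07-fold under another scaling and at most 2.39-fold where near copies were summed. Of the ratios under 2-fold, 3 crossed 1: Cyp4a12b in HFD + DfCS-Ib over HFD, at 0.781 with copies summed, and in HFD + DfCS-Ib over chow Cyp4a10, at 0.980 without the 50 most abundant genes, and Cyp4a32, at 1.02 with copies summed. The summed level of HFD + DfCS-Ib over HFD was 4.93 with library totals, 4.92 on RPKM and 5.14 without the 50 most abundant genes. For HFD over chow it was 0.163 with library totals and 0.166 on RPKM, and for HFD + DfCS-Ib over chow 0.818 on RPKM and 0.782 without the 50 most abundant genes. The count of members higher in HFD than in chow liver was 0 with DESeq2 size factors, with a pseudocount of 5 and at 3-fold, each time by loss of Cyp4a12a. Counts over all genes depended on the pseudocount and the threshold. In HFD + DfCS-Ib over HFD a pseudocount of 5 left 166 genes higher and 128 lower, and a 3-fold call 97 and 81. In HFD over chow these were 230 and 164, and 143 and 110. In HFD + DfCS-Ib over chow they were 82 and 21, and 48 and 12, and the lower genes numbered 103 with a pseudocount of 0.5 and 116 without the 50 most abundant genes. No paired analysis was possible because each group has 1 library. Depth limits Cyp4a31 most, with 92 counts in HFD liver, and does not limit Cyp4a10 or Cyp4a14. The spread between mice cannot be estimated.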
